A study of Mus musculus with 24 samples.

Results

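The 2 long noncoding RNA genes 2310069B03Rik (ENSMUSG00000100291) and Gm47595 (ENSMUSG00000112080) are described here, out of 12615 genes in a count table of mouse brown fat. Both were chosen by measured values. Among genes higher in the cold in Cre- mice, 2310069B03Rik had the smallest p, and Gm47595 had the smallest p among genes lower under the BATdKO label at 8°C. In these libraries 834 of the 12615 genes have an annotated type of long noncoding RNA.

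The study asked how the corepressor subunits TBLR1 and TBL1 act in brown adipose tissue (BAT) during prolonged cold. BAT RNA of 24 mice was measured with a kit that makes a tag at the 3′ end of each transcript, with 6 mice in each of 4 groups. All mice were homozygous for floxed alleles of TBLR1 and TBL1 and all received tamoxifen. BATdKO mice also carried Ucp1CreERT2, a recombinase that tamoxifen activates and that the Ucp1 promoter limits to cells that use it, whereas Cre- control mice lacked it. Warm groups spent 4 days at 30°C. Cold groups were cooled in steps and, by the sample labels, kept for 6 days at 8°C. The labels describe females and give an age of 5 years at injection. The written account of the experiment differs from the labels on days in the cold, on sex and on this age, which it gives in weeks, so samples were grouped by genotype and temperature only. Mice are called m1 to m6 within a group by their mouse numbers, which pair no mice between groups.

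Long noncoding RNAs are transcripts without a long reading frame. Many are made at low levels and in few tissues, and they are known to act in the nucleus on chromatin, on neighbouring genes through the act of their transcription, or in the cytoplasm on other RNAs and proteins. In brown adipocytes, cold acts through noradrenaline, beta-adrenergic receptors and cAMP, which raise the genes for heat production by the uncoupling protein UCP1. No function of either gene was measured here.

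2310069B03Rik is annotated as a long intergenic noncoding RNA on the minus strand at chr6:82877864-82881853 (GRCm38, GENCODE vM21), 3990 bases long. It has 3 annotated transcripts of 4 exons each, and none of its exons overlaps another annotated gene. Its best-supported transcript, 2310069B03Rik-202, is 1833 bases long, with a last exon of 1613 bases. A 3′ tag kit reads from the polyadenylated end, so the last 200 bases of this transcript (chr6:82877864-82878063, minus strand) are shown with the polyadenylation signal AATAAA in capitals.

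2310069B03Rik-202 end: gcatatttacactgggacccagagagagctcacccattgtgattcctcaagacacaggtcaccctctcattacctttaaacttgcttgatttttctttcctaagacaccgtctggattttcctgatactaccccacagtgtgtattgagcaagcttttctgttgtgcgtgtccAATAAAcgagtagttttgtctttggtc

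Gm47595 is annotated as an antisense RNA on the minus strand at chr10:61494917-61496290, 1374 bases long. Its single transcript has 2 exons of 165 and 227 bases, 392 bases in all, and lies inside intron 2 of Lrrc20, a gene for a leucine-rich repeat protein on the plus strand, without touching a Lrrc20 exon. The kit keeps the strand of the RNA, but whether the authors counted reads by strand is not given in the sources used here. Both exons are shown because they make up the whole annotated RNA, exon 1 at chr10:61496126-61496290 and exon 2 at chr10:61494917-61495143, with AATAAA in capitals.

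Gm47595 exon 1: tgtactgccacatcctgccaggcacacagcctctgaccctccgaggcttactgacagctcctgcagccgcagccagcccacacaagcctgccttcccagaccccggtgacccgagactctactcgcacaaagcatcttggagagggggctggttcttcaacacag

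Gm47595 exon 2: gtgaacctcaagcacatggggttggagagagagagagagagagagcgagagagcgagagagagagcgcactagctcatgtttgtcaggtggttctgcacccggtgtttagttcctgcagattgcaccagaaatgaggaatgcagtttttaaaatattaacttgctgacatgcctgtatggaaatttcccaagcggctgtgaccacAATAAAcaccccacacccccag

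The signal begins 27 bases from the end of 2310069B03Rik-202 and 22 bases from the end of the Gm47595 transcript, and each transcript holds it once. In the last 40 bases it was present in 28.6% of 18930 annotated long noncoding transcripts and in 25.8% of all 141767 transcripts.

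Of the 2 genes, 1 (2310069B03Rik) was matched in the RefSeq promoters (GRCm38.p6, chr6:82881804-82882103, minus strand), and its promoter is shown because the gene had the highest log2 fold change for cold in Cre- mice. It covers 250 bases before and 50 after the start, and capitals mark the only match among 8 motifs searched on both strands.

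2310069B03Rik promoter: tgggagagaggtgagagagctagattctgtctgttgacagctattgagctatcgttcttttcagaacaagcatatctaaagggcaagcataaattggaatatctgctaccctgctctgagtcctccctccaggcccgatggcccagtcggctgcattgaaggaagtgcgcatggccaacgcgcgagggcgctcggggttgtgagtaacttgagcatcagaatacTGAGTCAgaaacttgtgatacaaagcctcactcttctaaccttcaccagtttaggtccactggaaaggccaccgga

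The match is to the AP-1 motif TGANTCA, which reads on both strands and starts 26 bases before the transcription start. It was held by 7.8% of 32851 RefSeq promoters of this length. The window held no match to the cAMP response element TGACGTCA (1.8% of promoters) or its core TGACG (20.8%), which is part of the full element. It also held none to the nuclear receptor half-site AGGTCA (16.3%), to the extended half-site TCAAGGTCA that contains it (0.4%), to a direct repeat of the half-site with 1 base between (0.0% after rounding), to the E-box CACGTG (7.2%) or to the TATA box TATAAA (13.6%). A match or its absence describes these letters only.

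Several facts of the whole series bear on both genes. The tissue label is brown fat, and all 8 brown adipocyte marker genes (Ucp1, Cidea, Dio2, Elovl3, Ppargc1a, Prdm16, Cox7a1 and Cox8b) were in the table, with a summed share of 0.0502% to 0.333% of counts. The 8 hepatocyte markers, among them albumin (Alb), took 2.85% to 4.48% of counts in every library, 9.24 to 85.5 times the brown adipocyte share, and 38 Mup genes, which encode major urinary proteins made in liver and were added after the values had been seen, took 11.5% to 17.5%. Which cells the counts of 2310069B03Rik and Gm47595 came from therefore cannot be told from these libraries, and the part of other tissue in the results below was not tested. The genotype labels were checked on the targeted genes, which were higher, not lower, under the BATdKO label at 8°C in edgeR's quasi-likelihood test (Tbl1xr1 log2 fold change 0.92, adjusted p = 0.00348, and Tbl1x 0.39, adjusted p = 0.0633). A 3′ tag need not lie in the deleted part, which is not given in the sources used here, so this does not check the deletion. At 30°C, the library labelled Cre- m6 had the highest Tbl1xr1 of its group (38.6 CPM, counts scaled to library size) and the library labelled BATdKO m6 the lowest (17.0 CPM), each within the range of the other label's remaining 5 libraries (29.8 to 42.0 and 16.4 to 24.6 CPM). Tbl1x showed the same order, and Ucp1 was 548 CPM in Cre- m6 and 84.7 CPM in BATdKO m6, where the other Cre- libraries reached 133 CPM at most and the other BATdKO libraries ran from 217 to 412 CPM. On these genes both m6 libraries at 30°C thus stood apart from the others of their label. Ucp1 itself was not called between genotypes at 8°C (log2 fold change 0.13, adjusted p = 0.98 by edgeR's test). Whether the labels were exchanged was not tested. Fold changes, pooled ratios and tests of both RNAs that rest on these 2 libraries are given with and without them, an alternative added after the data were seen. Levels, ranks and correlations use all libraries, and groups are named by their labels. Total counts ran from 699703 (Cre- m4 at 30°C) to 11527643.

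2310069B03Rik was close to undetected at 30°C and abundant enough to be counted in every library at 8°C. In the libraries labelled Cre- at 30°C it had 0 to 4 counts per library, 7 counts in all, with 0 in 3 of 6. The lowest, median and highest levels there were 0, 0.069 and 0.315 CPM. A limit of 3 counts corresponds to between 0.236 and 4.10 CPM in these libraries, so its level in the Cre- mice at 30°C lay near or under what they can resolve.

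At 8°C the Cre- libraries held 29 to 133 counts, and the lowest, median and highest levels were 4.85, 9.35 and 14.4 CPM. Every Cre- library at 8°C was above every library at 30°C. The log2 fold change for cold in Cre- mice was 5.90 (standard error (SE) 0.44), the highest of 12485 genes tested, and it is the value on which the gene was chosen. As a ratio of pooled counts, 413 against 7, it was 67.6-fold, with an exact 95% interval of 32.5 to 169 that covers counting error only. Leaving Cre- m6 out, it was 53.7-fold, with an interval of 25.8 to 135.0. Next in order of p were Ttc25, a gene linked to cilia (log2 fold change 3.82, SE 0.31), and Dio2, the deiodinase that activates thyroid hormone in brown fat (4.56, SE 0.38). For context, 5.57% of tested genes were called higher and 3.59% lower in this comparison.

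The libraries labelled BATdKO were not used to choose 2310069B03Rik, so cold within them was tested. The gene passed the filter on low counts only through libraries at 8°C, 6 of 6 Cre- and 4 of 6 BATdKO. With the BATdKO groups alone it failed that filter, so the test is not wholly apart from the choice. Fits without the filter are among the alternatives below. At 30°C the BATdKO libraries held 1 to 5 counts, 15 in all, with lowest, median and highest levels of 0.0849, 0.317 and 0.872 CPM. At 8°C they held 4 to 39 counts, with 1.37, 3.88 and 4.55 CPM. The groups did not overlap, and the 2 lowest at 8°C were m6 with 7 counts and m1 with 4.

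2310069B03Rik rose by a log2 fold change of 3.27 (SE 0.44), or 9.66-fold, in BATdKO mice in the cold, with an adjusted p = 3.11e-05 in edgeR's quasi-likelihood test with Benjamini-Hochberg adjustment over all 12485 genes. In this comparison 470 genes, 3.76%, were called higher and 413, 3.31%, lower. Without both m6 libraries at 30°C the log2 fold change was 3.36 (adjusted p = 4.49e-05). On the log2 CPM scale the group means differed by 2.74 (SD 0.69 at 8°C and 0.72 at 30°C, n = 6 each), and an exact two-sided permutation test gave p = 0.00216, the smallest it can give with 6 against 6 mice. Leaving out BATdKO m6 at 30°C, the difference was 2.81 (exact permutation p = 0.00433, again the smallest possible). Among all tested genes its log2 fold change ranked 4.

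**Figure D1:**
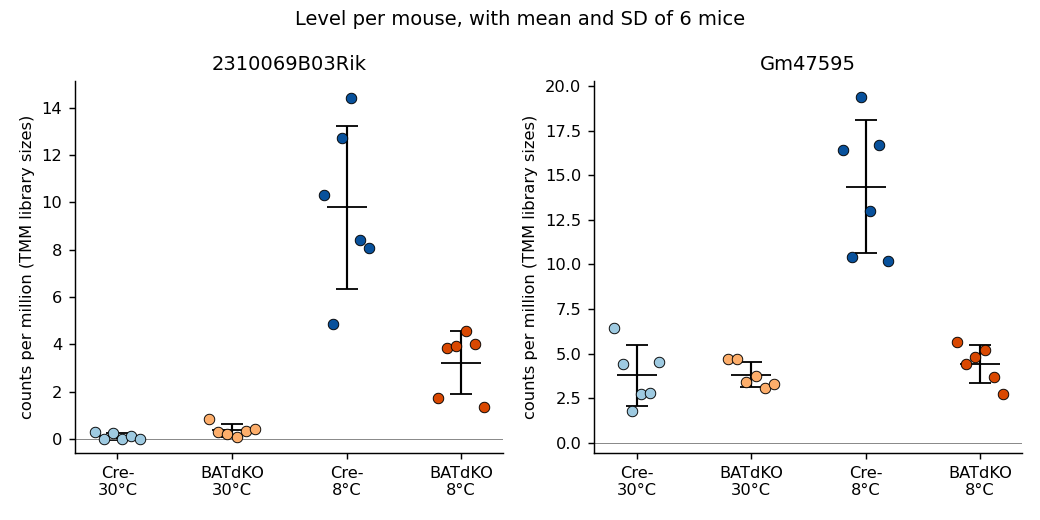
Level of 2310069B03Rik (left) and Gm47595 (right) in CPM on the y axis, by group on the x axis, 1 point per mouse, with bars for the mean and SD of 6 mice. 2310069B03Rik sits at 0 to 0.872 CPM in all libraries at 30°C and rises in both cold groups, while Gm47595 stands above 10 CPM only in the Cre- libraries at 8°C.

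Markers were summed beside this result. The brown adipocyte share ran from 0.0889% to 0.174% in BATdKO libraries at 30°C and from 0.223% to 0.308% at 8°C, with no overlap, and that list holds cold-responsive genes such as Ucp1 and Dio2. The share of the general adipocyte list (Adipoq, Plin1, Fabp4, Pparg and Lipe) overlapped, at 0.085% to 0.353% and 0.12% to 0.265%. So did the hepatocyte share, at 3.04% to 3.89% and 2.85% to 4.12%, and the muscle fibre share, at 0.00318% to 0.0731% and 0.000757% to 0.0162%. Progenitor and stromal markers were lower in the cold without overlap, at 0.0176% to 0.0216% and 0.012% to 0.0156%, and macrophage markers overlapped, at 0.0187% to 0.0258% and 0.0151% to 0.0213%. Endothelial markers overlapped as well, at 0.0136% to 0.0176% and 0.0141% to 0.0172%, and the 4 B cell markers were not among the genes analysed here. No gene of the other lists was at 0 in every library of a group. The part of these shares in the rise was not tested, and in bulk tissue fewer cells of a type and less RNA per cell cannot be told apart.

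The remaining comparisons of 2310069B03Rik hold the Cre- mice on which it was chosen and are given as descriptions. At 8°C it was lower under the BATdKO label, by a log2 fold change of -1.52 (SE 0.27), and no BATdKO library (highest 4.55 CPM) reached the lowest Cre- library (4.85 CPM). At 30°C the ranges overlapped, at 0 to 0.315 and 0.0849 to 0.872 CPM, and the log2 fold change of 1.11 (SE 0.76) rests on 15 against 7 counts. Their pooled ratio was 2.26, with an exact 95% interval of 0.867 to 6.55, or 1.69 (0.612 to 5.05) on 12 against 7 counts when both m6 libraries were left out. The fitted log2 fold change was then 0.73, and without Cre- m1 at 30°C, which held 4 of the 7 counts, it was 1.76. The cold response under the BATdKO label minus that in Cre- mice was -2.63 on the log2 scale (SE 0.83), or -2.24 without both m6 libraries. Of all tested genes 0.0561% were called higher and 0.04% lower for this difference. Cold in Cre- mice was 5.60 without them. The comparisons share mice and are not independent of one another.

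By level, 2310069B03Rik was therefore highest in Cre- mice at 8°C, then in BATdKO mice at 8°C, with both groups at 30°C overlapping at the bottom. On the CPM scale of the 3′ tags, where each transcript gives tags from its end whatever its length, its mean ranked 12611 of 12615 genes in Cre- mice at 30°C and 6202 at 8°C, where it was number 106 of 834 long noncoding RNA genes. In BATdKO mice at 8°C it was number 362 of 834.

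Gm47595, unlike 2310069B03Rik, was counted in every library. In the libraries labelled Cre- at 8°C it held 62 to 120 counts, with lowest, median and highest levels of 10.2, 14.7 and 19.4 CPM. In those labelled BATdKO at 8°C it held 13 to 45 counts, with 2.74, 4.62 and 5.66 CPM. The groups did not overlap. The log2 fold change of -1.71 (SE 0.22), or 3.28-fold lower, is the value on which the gene was chosen, and 1.12% of tested genes were called lower and 0.697% higher in this comparison. By p the next genes lower were Bmp8b, a bone morphogenetic protein of brown fat (-2.25, SE 0.30), and E2f2, a cell cycle transcription factor (-1.11, SE 0.16). By size of change Gm47595 was number 47.

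The mice at 30°C were not used to choose Gm47595, so the genotype comparison was tested there. In libraries labelled Cre- its lowest, median and highest levels were 1.76, 3.57 and 6.45 CPM, and in those labelled BATdKO 3.05, 3.58 and 4.71 CPM. The BATdKO range lay wholly inside the Cre- range. Cre- m4, the shallowest library, held 2 counts of Gm47595, and Cre- m1, which held 82, was the highest.

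At 30°C Gm47595 differed by a log2 fold change of -0.08 (SE 0.24, 95% interval -0.58 to 0.42) between the labelled genotypes, with an adjusted p = 0.982 in edgeR's quasi-likelihood test. The means of log2 CPM differed in the other direction, by 0.12 (SD 0.26 for BATdKO and 0.64 for Cre-, n = 6 each), and an exact two-sided permutation test gave p = 0.703. That difference was 0.23 (exact permutation p = 0.532) when both m6 libraries were left out, and the log2 fold change was -0.01 (adjusted p = 1.0). In this comparison edgeR called 0 of 12485 genes (0%), 1303 had an unadjusted p under 0.05, and DESeq2 called 48 higher and 42 lower. Leaving out both m6 libraries brought edgeR's calls to 295 higher and 205 lower, without Gm47595 among them.

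The cold and warm levels of Gm47595 lay apart in Cre- mice and overlapped in BATdKO mice, both given as descriptions because the mice at 8°C were used to choose the gene. In Cre- mice the log2 fold change was 1.80 (SE 0.22), or 1.83 without both m6 libraries, and no library at 30°C (highest 6.45 CPM) reached the lowest at 8°C (10.2 CPM). In BATdKO mice it was 0.17 (SE 0.25, 95% interval -0.34 to 0.68), or 0.12 without m6, and the ranges of 3.05 to 4.71 and 2.74 to 5.66 CPM overlapped. The difference of these responses was -1.63 (SE 0.33), or -1.71 without m6. Gm47595 was thus highest in Cre- mice at 8°C, and the other 3 groups, with means of 3.77, 3.82 and 4.42 CPM, overlapped one another. Among 834 long noncoding RNA genes its mean level was number 63 in Cre- mice at 8°C and number 247 in BATdKO mice at 8°C.

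At 8°C the marker shares of the labelled genotypes overlapped for the brown adipocyte list (0.192% to 0.333% in Cre- and 0.223% to 0.308% in BATdKO), the general adipocyte list (0.124% to 0.217% and 0.12% to 0.265%) and the hepatocyte list (3.10% to 4.02% and 2.85% to 4.12%). Muscle fibre markers overlapped as well (0.00176% to 0.158%, median 0.0494%, and 0.000757% to 0.0162%, median 0.00627%). So did macrophage markers (0.0151% to 0.0218% and 0.0151% to 0.0213%), endothelial markers (0.0152% to 0.0195% and 0.0141% to 0.0172%) and progenitor and stromal markers (0.0148% to 0.0245% and 0.012% to 0.0156%). Their part in the values of both genes at 8°C was not tested.

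**Figure D2:**
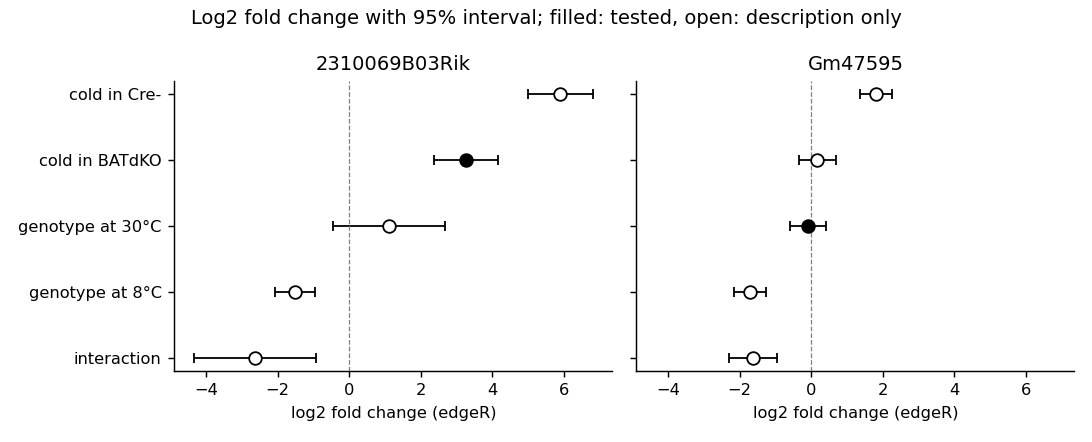
Log2 fold change from edgeR on the x axis with 95% intervals, for each comparison on the y axis, for 2310069B03Rik (left) and Gm47595 (right). Filled points mark the comparisons that were tested (3.27 for cold in BATdKO, and -0.08 for genotype at 30°C) and open points those given as descriptions. The interaction is the cold response in BATdKO minus that in Cre- mice.

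The genes around each RNA were taken by position. Within 500 kb of 2310069B03Rik, 44 genes are annotated and 12 are in the table, none of them a long noncoding RNA. In Cre- mice 2 of the 12 were called higher in the cold and 0 lower, where 9.15% of all tested genes were called in either direction. The median log2 fold change of the 12 was -0.04, and that of all genes -0.02. In BATdKO mice 1 of 12 was called higher and 0 lower, against 7.07% of all genes, with medians of 0.02 and 0.00.

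Hk2, hexokinase 2, which phosphorylates glucose on entry into the cell, was called in both. It lies on the same strand, 103.4 kb downstream. Its lowest, median and highest levels were 36.9, 42.4 and 67.1 CPM in Cre- mice at 30°C and 93.2, 153 and 198 CPM at 8°C. In BATdKO mice they were 20.4, 37.7 and 60.8 CPM at 30°C and 63.8, 102 and 151 CPM at 8°C. The warm and cold ranges did not overlap under either label.

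Hk2 rose by a log2 fold change of 1.68 (SE 0.21, adjusted p = 6.81e-06) in Cre- mice and 1.49 (SE 0.21, adjusted p = 6.38e-05) in BATdKO mice, by edgeR's test. Between genotypes at 8°C its log2 fold change was -0.52 (SE 0.21, adjusted p = 0.328). The other gene called was Bola3, a mitochondrial iron-sulfur cluster factor 467.3 kb upstream, which rose by 0.52 (SE 0.15, adjusted p = 0.0398) in Cre- mice. The rest, including Pole4, a DNA polymerase epsilon subunit, Mogs, a glucosidase of glycoprotein synthesis, Dctn1, a dynactin subunit, and Tet3, a 5-methylcytosine dioxygenase, were not called in any comparison. With both m6 libraries left out Hk2 rose by 1.66 and 1.36. No neighbour was called between genotypes at 8°C, where 1.82% of all genes were called.

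Within 500 kb of Gm47595, 32 genes are annotated and 12 are in the table. In Cre- mice 2 of them were called higher in the cold and 0 lower, against 5.57% and 3.59% of all tested genes, with a median log2 fold change of 0.12 beside -0.02 for all genes. Sgpl1, the lyase that breaks down sphingosine 1-phosphate, rose by 0.61 (SE 0.09, adjusted p = 8.24e-05). Tysnd1, a peroxisomal protease, rose by 0.53 (SE 0.09, adjusted p = 0.000219), and in BATdKO mice by 0.45 (SE 0.09, adjusted p = 0.0019), where it was the 1 gene of 12 called (7.07% of all genes were), with a median of 0.15 for the 12. When both m6 libraries were left out 4 of 12 were called higher in Cre- mice, where calls over all genes also rose, from 695 higher and 448 lower to 944 and 707. None was called between genotypes in the fit of all libraries, and the median log2 fold change at 8°C was -0.08.

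Lrrc20 is the gene whose intron encloses Gm47595. Its lowest, median and highest levels were 8.20, 9.60 and 26.1 CPM in Cre- mice at 30°C and 11.7, 13.4 and 18.0 CPM at 8°C. In BATdKO mice they were 8.58, 9.74 and 11.3 CPM at 30°C and 10.1, 10.8 and 13.1 CPM at 8°C. All 4 ranges overlapped except those of the Cre- libraries at 8°C and the BATdKO libraries at 30°C, and the highest value was in Cre- m3 at 30°C, where Gm47595 was at its lowest of that group (1.76 CPM). Its log2 fold change was 0.05 (SE 0.20) for cold in Cre- mice and -0.37 (SE 0.21, adjusted p = 0.638) for genotype at 8°C. The one neighbouring long noncoding RNA in the table, Gm48086, which lies on the strand of Gm47595, had values of 0.07 (SE 0.20) and -0.09 (SE 0.21).

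**Figure D3:**
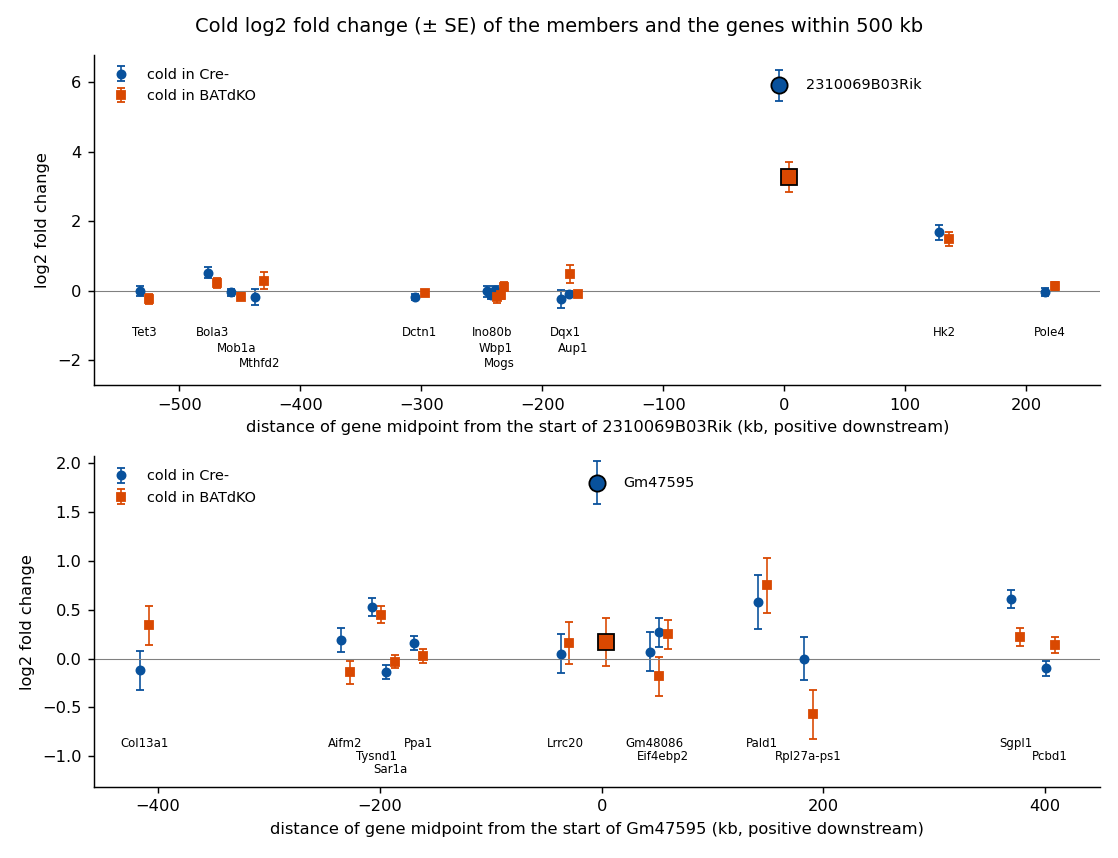
Cold log2 fold change with SE on the y axis for 2310069B03Rik (top) and Gm47595 (bottom), shown as large symbols, and for the genes of the table within 500 kb, by the distance of their midpoint from the start of the RNA in kb on the x axis. Circles stand for Cre- and squares for BATdKO mice. In the top panel Hk2, at 1.68 and 1.49, stands apart from the other neighbours, and in the bottom panel Gm47595 is high in Cre- mice only.

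2310069B03Rik was set beside the other long noncoding RNAs of the table. For cold in BATdKO mice 817 were tested, of which 24 (2.94%) were called higher and 25 (3.06%) lower, beside 3.76% and 3.31% of all genes, with a median log2 fold change of -0.06. By log2 fold change 2310069B03Rik was number 2 of the 817, and by p number 2 of the 340 that were higher. The highest log2 fold change was that of Gm15241 (5.09, SE 0.82, adjusted p = 0.00025 by edgeR). Its means were 0.0607 CPM at 30°C and 2.29 CPM at 8°C. The smallest p belonged to B930025P03Rik, which had a mean of 1.48 CPM at 30°C and 6.39 CPM at 8°C (log2 fold change 2.07, SE 0.25, adjusted p = 6.31e-06 by edgeR). B430219N15Rik came next after 2310069B03Rik, with means of 1.09 and 6.72 CPM (2.67, SE 0.38, adjusted p = 6.38e-05). Among those lower, the smallest p belonged to Gm14286 (-1.51, SE 0.24), Gm49599 (-0.65, SE 0.11) and Tmem134 (-0.49, SE 0.08), the last annotated in this release as a processed transcript. Leaving both m6 libraries out, 16 long noncoding RNA genes were called higher and 28 lower.

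In Cre- mice the log2 fold change for cold was 0.05 for B930025P03Rik and 0.78 (neither called) for B430219N15Rik, beside 5.90 for 2310069B03Rik. The value of 5.90 is the one on which 2310069B03Rik was chosen, while the other RNAs were named for cold in BATdKO mice. Their contrast in Cre- mice therefore follows in part from these choices. The difference of cold responses between the labelled genotypes was fitted for all genes by edgeR. Of 817 long noncoding RNA genes 1 (0.122%) was called higher and 1 (0.122%) lower, beside 0.0561% and 0.04% of all genes. The values of B930025P03Rik and B430219N15Rik for that difference are not given here.

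In Cre- mice 27 of 817 long noncoding RNA genes (3.30%) were called higher in the cold and 40 (4.90%) lower, beside 5.57% and 3.59% of all genes. Between genotypes 3 were called higher and 6 lower under the BATdKO label at 8°C, or 1.10% against 1.82% of all genes. At 30°C the count was 0, with 73 at an unadjusted p under 0.05 and 2 higher and 2 lower in DESeq2.

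**Figure D4:**
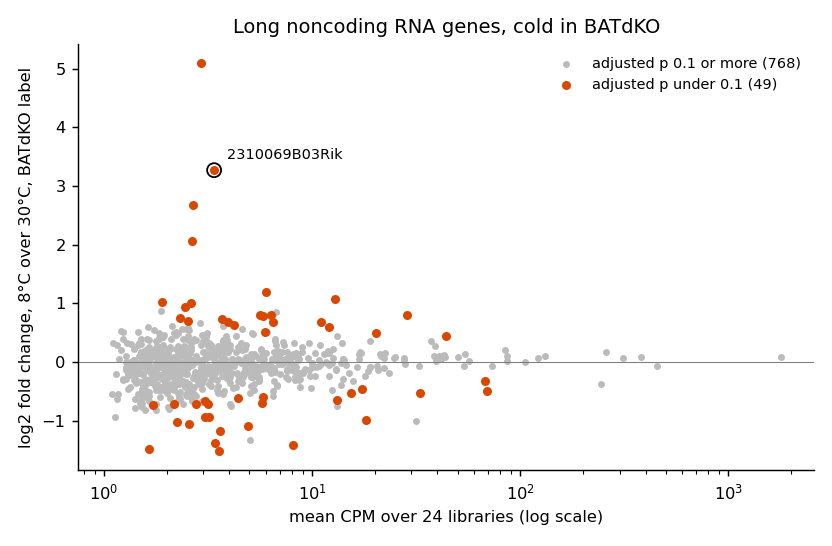
Log2 fold change for cold in BATdKO mice (y axis) against mean CPM over 24 libraries (x axis, log scale) for 817 long noncoding RNA genes, 1 point per gene. Coloured points are the 49 with an adjusted p under 0.1, and 2310069B03Rik, circled at 3.27, has the second-highest value.

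Of a list of 16 widely studied long noncoding RNAs, 14 were in the table and none was called higher in the cold under either label. Meg3, an imprinted RNA, was lower in Cre- (-0.61, SE 0.14, adjusted p = 0.00873) and in BATdKO mice (-0.52, SE 0.15, adjusted p = 0.0384). Dleu2, the host of a microRNA cluster, was lower in Cre- (-0.53, SE 0.12, adjusted p = 0.00669) and in BATdKO mice (-0.45, SE 0.12, adjusted p = 0.0284). Gm15241 aside, all 28 calls for cold among the named neighbours, reference genes and long noncoding RNAs were kept, with the same sign, without both m6 libraries. The list's median log2 fold change was -0.12 and -0.16, and none of the 14, which include Malat1 and Neat1, was called between genotypes.

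The known cold genes of brown fat gave a scale for the rise of 2310069B03Rik. Of 7 on the list, 5 were in the table, and all 5 were called higher in the cold under both labels, with medians of 3.10 in Cre- and 2.54 in BATdKO mice. Ucp1 rose by 3.10 (SE 0.44) and 2.54 (SE 0.43) on the log2 scale, Dio2 by 4.56 (SE 0.38) and 4.05 (SE 0.33), and Ppargc1a, a coactivator of mitochondrial genes, by 1.27 (SE 0.16) and 0.95 (SE 0.15). Elovl3, a fatty acid elongase, rose by 0.37 (SE 0.10) and 0.69 (SE 0.10). Bmp8b rose by 3.80 (SE 0.35) and 3.01 (SE 0.50) and was the 1 gene of the 5 that was lower under the BATdKO label at 8°C (-2.25, SE 0.30, adjusted p = 5.28e-05 by edgeR). Leaving out both m6 libraries, Ucp1 rose by 3.89 and 2.34.

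Genes most like each RNA in pattern were named by Pearson's r of log2 CPM over the 24 libraries, as a description, since the 4 groups set most of it and depth is shared. For 2310069B03Rik these were Ttc25 (r = 0.93), Kcmf1, a ubiquitin ligase (0.93), Me1, malic enzyme (0.93), Pfkl, liver-type phosphofructokinase (0.92), and Gpi1, glucose-6-phosphate isomerase (0.92). Ttc25 had mean levels of 1.57 and 2.77 CPM in Cre- and BATdKO mice at 30°C and of 27.1 and 14.5 CPM at 8°C. For Hk2 r was 0.90, and between Hk2 and Gm47595, which lie on different chromosomes, it was 0.77. By Spearman's rho 3 of the 5 were the same genes.

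For Gm47595 the 5 were Nat8l, the enzyme that makes N-acetylaspartate (r = 0.93), Sh2b2, an adaptor of insulin signalling (0.92), Taldo1, transaldolase of the pentose phosphate pathway (0.91), Gja1, connexin 43 (0.89), and Fasn, fatty acid synthase (0.89). Nat8l had mean levels of 14.4 and 16.8 CPM in Cre- and BATdKO mice at 30°C and of 39.2 and 19.9 CPM at 8°C, the order seen for Gm47595. For Lrrc20 r was 0.31 and Spearman's rho 0.55. By Spearman's rho 2 of the 5 were the same genes.

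Taking deviations from the group means leaves variation between mice together with counting error, and by this measure none of the 5 genes was shared for either RNA. Counting error is large for 2310069B03Rik at 30°C, where libraries held 0 to 5 counts. The genes named have the highest r among all tested genes, and no r was tested. For 2310069B03Rik the closest were then Anapc11, a subunit of the anaphase-promoting complex (r = 0.79), Mfn2, mitofusin 2 (0.78), Aldoa, aldolase A (0.77), Pkm, pyruvate kinase (0.76), and Dcaf6 (0.75). For Gm47595 they were Akap7 (0.88), Ndufc1, a complex I subunit (0.88), Ppargc1b, a coactivator of mitochondrial genes (0.87), Cycs, cytochrome c (0.84), and Asns, asparagine synthetase (0.84). Between both RNAs r was 0.75 over the libraries and 0.19 for these deviations. For the deviations, r with Hk2 was 0.58 for 2310069B03Rik and 0.57 for Gm47595, and r of Gm47595 with Lrrc20 was -0.10.

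**Figure D5:**
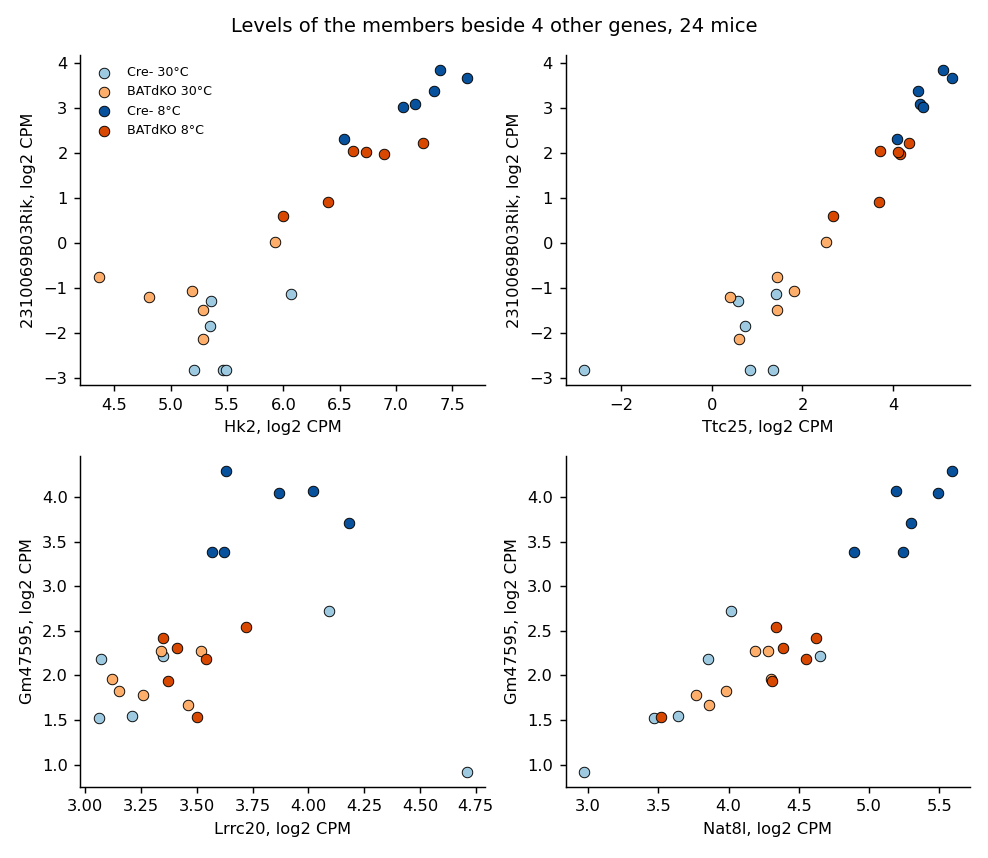
Log2 CPM of 2310069B03Rik (top, y axis) against Hk2 and Ttc25 (x axis), and of Gm47595 (bottom, y axis) against Lrrc20 and Nat8l (x axis), 1 point per mouse, coloured by group. The Cre- libraries at 8°C lie at the top right beside Hk2, Ttc25 and Nat8l (r = 0.90, 0.93 and 0.93). Beside Lrrc20 that order is weaker (r = 0.31, Spearman's rho 0.55).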

How the data were processed

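BAT RNA of 24 mice was sequenced as 3′ tags. Before deposit the authors removed adapters with BBDuk, mapped reads to GRCm38 with STAR 2.5.3a and counted genes with Rsubread. The deposited values are raw counts of 12615 genes. The annotation release, strand setting and low-count rule are not given in the sources used here.

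Samples were grouped by the genotype and temperature in their labels. Genes and lists were chosen with earlier results of these data known. In R 4.3.3 the counts were normalized by TMM, filtered by filterByExpr on the 4 groups (12485 genes kept) and fitted with edgeR 4.0.16 (quasi-likelihood, limma 3.58.1, 1 mean per group). P-values were adjusted by Benjamini-Hochberg, with a threshold of 0.1. The SE was taken from the fold change and its F statistic. 2310069B03Rik passed the filter through its cold libraries, of which 6 Cre- and 4 BATdKO reached 1.51 CPM, and none at 30°C did. Log2 CPM used a prior count of 1. Exact permutation tests used all 924 assignments of mice. Replicates are separate mice.

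Named genes were both RNAs, genes of the table within 500 kb, the 5 most alike by each r, the targeted genes, members of the listed sets past the threshold with the smallest p, and the 3 long noncoding RNAs with the smallest p per direction in the tested comparisons. Some other genes were named for context after their values were seen. Gene positions and transcript sequences were from GENCODE vM21.

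Both count models were first tested on simulated data. The authors' account of their own analysis removes outliers without naming them, so all 24 libraries were used here, which may include some that the authors left out. Alternatives were DESeq2 1.42.0, RLE normalization, other filters, robust dispersion, only the groups compared, other prior counts, and leaving out each mouse.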

Additional observations from a re-analysis of the deposited data

Results flagged for a closer look

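Of 28 sets of 6 values (7 genes in 4 groups), 4 held a mouse far from the rest of its group, where chance alone marks about 1 in 20 sets. None was a value of 2310069B03Rik or Gm47595. In the library labelled Cre- m6 at 30°C, Tbl1xr1 (38.6 CPM) and Ucp1 (548 CPM) were the highest of their group, and in the library labelled BATdKO m6 at 30°C Tbl1x (39.7 CPM) was the lowest, as was Ucp1 (84.7 CPM, with 217 to 412 CPM in the other 5). In Cre- m1 at 30°C Hk2 was the highest (67.1 CPM). In Cre- m6 2310069B03Rik had 0 counts and Gm47595 4.53 CPM, and in BATdKO m6 they had 0.45 and 3.30 CPM.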

How the results depend on the processing

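The cold rise of 2310069B03Rik in BATdKO mice kept its direction and its call in all 32 alternatives in which it was fitted. The log2 fold change was 2.96 to 3.65 and edgeR's or DESeq2's adjusted p 9.7e-10 to 0.000216. Of the 32, 24 left out 1 mouse, including Cre- mice, which enter this comparison only through the shared fit. When only the 2 BATdKO groups were fitted, 2310069B03Rik failed the filter on low counts, so that fit is not among the 32. Fitted without a filter, which was added after seeing the data, it gave 3.25 (adjusted p = 0.000179). The genotype difference of Gm47595 at 30°C stayed uncalled in all 33 alternatives (adjusted p 0.819 to 1.0), between -0.24 and 0.18. It turned positive without Cre- m1 (0.18), and the difference of mean log2 CPM turned negative without Cre- m3 (-0.07), with 0.05 to 0.29 without any other mouse. For the cold rise of 2310069B03Rik in BATdKO mice the difference of mean log2 CPM (2.74) was 3.12 with a prior count of 0.25 and 1.97 with 4. Its permutation p stayed at the smallest possible value in both, which follows from groups that do not overlap and is no further check. The log2 fold changes of both RNAs in the comparisons without a test kept their sign. Leaving out 1 mouse moved those of 2310069B03Rik most. Cold in Cre- mice (5.90, SE 0.44) then ran from 5.60 to 6.54, genotype at 30°C from 0.74 to 1.76, and the interaction from -3.28 to -2.25. No paired analysis was possible because the mouse numbers pair no mice between groups.

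Counts of called genes moved more. Without both m6 libraries at 30°C, added after seeing the data, genotype at 30°C went from 0 to 295 higher and 205 lower (8 and 13 long noncoding), genotype at 8°C to 134 higher, cold in Cre- mice to 707 lower, and the interaction to 34 lower (3 long noncoding). With Cre- m4 at 30°C also left out the values were 308 and 238 (9 and 13 long noncoding), 135, 806, and for the interaction 11 higher and 33 lower (2 long noncoding). DESeq2 gave 48 and 42 for genotype at 30°C (2 and 2 long noncoding) and 18 and 33 for the interaction (2 long noncoding lower). Fitting only the groups compared gave 171 higher and 306 lower for genotype at 8°C (7 and 13 long noncoding), or 176 and 308 without a filter (7 and 12). The interaction had 8 lower with RLE and 12 with robust dispersion.

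Leaving out each mouse gave 321 to 547 higher and 238 to 522 lower for cold in BATdKO (16 to 30 and 18 to 34 long noncoding), 514 to 813 and 252 to 561 for cold in Cre- (21 to 30 and 22 to 48), 54 to 113 and 76 to 167 for genotype at 8°C (3 to 4 and 6 to 8), 0 to 217 and 0 to 152 for genotype at 30°C (0 to 5 and 0 to 7), and 6 to 12 and 1 to 27 for the interaction (1 to 2 and 0 to 1). For genotype at 30°C the highest counts came without Cre- m6. Tbl1x at 8°C kept its direction in all of these fits but missed the threshold in some. Without both m6 libraries the log2 fold changes of the targeted genes at 30°C were 0.80 for Tbl1xr1 and 0.51 for Tbl1x. Both libraries were left out after their values of these same genes had been seen, so these fold changes are descriptions and not tests. Intervals of pooled ratios and floors cover counting error only. Intervals of log2 fold changes were derived from edgeR's fold change and F statistic, which take in variation between mice. They are approximate and may be too narrow where counts are few. For cold of 2310069B03Rik in Cre- mice, with 7 counts at 30°C, the SE was 0.44 in this way and 0.58 in DESeq2. At 30°C the counts of 2310069B03Rik are too few for a fold between genotypes to be resolved.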
